A study of Mus musculus with 2 samples.

Results

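The small RNAs described here are those derived from small nucleolar RNA (snoRNA) genes in the brain of young and old mice. They were chosen as the sequenced tags that matched the mouse genome (mm9, NCBIM37) perfectly at 1 to 60 positions, on the sense strand of a gene annotated as snoRNA in GENCODE M1, and that matched no miRNA, mitochondrial or rRNA gene. A tag is a distinct sequence with its number of reads, and reads of a tag with several matches were divided evenly among them. By this rule 1837 of 725090 distinct tags were snoRNA-derived, 1211 of them present in the young library and 1186 in the old one, and 415 of the 1552 annotated snoRNA genes had at least 1 read. The study sequenced small RNAs of whole brain in 2 libraries. The young library came from male C57BL/6J mice of 5 months and the old library from male C57BL/6J mice of 24 to 25 months, neither treated nor genetically altered as far as the labels say, and each library combined the cDNA libraries of 2 mice. RNA of 18 to 30 nt was cut from a gel before cloning, and the tags deposited were 17 to 26 nt long, so intact snoRNAs and longer fragments are not in these counts.

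SnoRNAs are stable noncoding RNAs of the nucleolus, most of which are cut out of introns of protein-coding or noncoding host genes during splicing. C/D snoRNAs carry a C box near the 5′ end and a D box near the 3′ end and guide 2′-O-methylation of ribosomal and spliceosomal RNA. H/ACA snoRNAs fold into hairpins followed by an H box and an ACA box and guide pseudouridylation, and the related scaRNAs act on spliceosomal RNAs in Cajal bodies. A few C/D snoRNAs, U3 among them, are needed for cleavage of the ribosomal RNA precursor instead. Small fragments of both kinds are found in many tissues, and some H/ACA hairpins are cut by Dicer and are catalogued as miRNAs.

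The sequences below show where in the snoRNA the small RNAs began and ended, which is the base of the results that follow. Each line gives a snoRNA gene on its own strand, 5′ to 3′, with the most read tag in capitals, and the coordinates are those of the gene in mm9. The first set holds the most read genes.
AC167122.1, chr7:88674741-88674867, plus strand, inside an intron of the noncoding gene 2900076A07Rik: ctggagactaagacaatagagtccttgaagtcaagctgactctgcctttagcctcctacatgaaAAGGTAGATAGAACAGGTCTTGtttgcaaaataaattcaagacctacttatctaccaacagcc
Snora16a, chr4:131865380-131865515, plus strand, intron of Snhg12: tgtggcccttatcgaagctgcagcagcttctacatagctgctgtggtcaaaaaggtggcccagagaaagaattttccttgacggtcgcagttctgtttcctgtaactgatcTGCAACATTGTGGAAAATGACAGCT
Snord104, chr11:106362307-106362376, plus strand, outside annotated genes: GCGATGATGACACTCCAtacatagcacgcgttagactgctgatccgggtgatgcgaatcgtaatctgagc
Snora36b, chr1:187066786-187066917, plus strand, intron of Rab3gap2: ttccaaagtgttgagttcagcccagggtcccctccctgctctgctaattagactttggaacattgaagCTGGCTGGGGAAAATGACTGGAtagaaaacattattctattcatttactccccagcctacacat
Scarna3a, chr1:161270414-161270553, plus strand, intron of Rfwd2: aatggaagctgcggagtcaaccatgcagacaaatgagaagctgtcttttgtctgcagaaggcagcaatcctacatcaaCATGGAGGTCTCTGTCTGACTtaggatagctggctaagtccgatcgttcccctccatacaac
Scarna3b, chr12:81492600-81492738, minus strand, intron of Dcaf5: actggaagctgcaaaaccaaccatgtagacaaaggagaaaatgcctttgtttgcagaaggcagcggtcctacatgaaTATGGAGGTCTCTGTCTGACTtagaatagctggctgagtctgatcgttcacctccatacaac
U3, the copy at chr11:87256739-87256952, plus strand, intron of Tex14: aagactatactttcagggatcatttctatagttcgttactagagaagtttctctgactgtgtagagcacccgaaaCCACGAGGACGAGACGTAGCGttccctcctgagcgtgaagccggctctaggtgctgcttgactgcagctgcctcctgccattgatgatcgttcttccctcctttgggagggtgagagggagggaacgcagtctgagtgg

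The capitals lie inside the gene, away from both ends, in AC167122.1, Snora36b, Scarna3a, Scarna3b and U3, at the 3′ end in Snora16a and at the 5′ end in Snord104. The most read tag of Snord104 began 2 bases before the annotated start of the gene and therefore reads CGGCGATGATGACACTCCA. In Snora16a 95.3% of reads in the young library and 95.5% in the old one ended at the last annotated base, 3 bases after its ACA box. The second set holds snoRNAs with large rises and a large fall between the libraries, and SNORD20, which overlaps a miRNA candidate of the study. The most read tag of SNORA63 began 1 base before the gene and reads TAAGCAGGATTTAACTACAATAT.
snoZ39, chr13:86184594-86184653, minus strand, intron of Cox7c: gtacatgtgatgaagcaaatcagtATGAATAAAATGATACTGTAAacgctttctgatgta
snoU97, chr7:118219574-118219741, minus strand, exon of Eif4g2: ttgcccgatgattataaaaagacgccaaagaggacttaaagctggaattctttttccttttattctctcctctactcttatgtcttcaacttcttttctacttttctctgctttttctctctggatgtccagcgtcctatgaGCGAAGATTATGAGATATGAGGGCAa
SNORA63, chr16:23111374-23111502, plus strand, exon of Eif4a2: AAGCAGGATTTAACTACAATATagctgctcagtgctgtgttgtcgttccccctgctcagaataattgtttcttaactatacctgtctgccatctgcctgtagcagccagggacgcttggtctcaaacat
Snord49a, chr11:62416952-62417023, plus strand, intron of 2410006H16Rik: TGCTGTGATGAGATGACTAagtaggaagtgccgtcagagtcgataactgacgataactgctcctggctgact
SNORD20, chr1:88248583-88248662, minus strand, intron of Ncl, the nucleolin gene: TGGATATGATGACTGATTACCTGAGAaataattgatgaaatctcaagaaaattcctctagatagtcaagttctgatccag

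The young library held 4523267 reads and the old library 6658732, counted after the study's alignment to the genome. Total reads are these aligned reads throughout. Levels are given as reads or as RPM, the reads per 1000000 reads of the library, and ratios are old over young RPM on the log2 scale. Precursors of the brain miRNAs were abundant, Mir124a-1 at 10507 RPM in the young and 4481 in the old library, Mir128-1 at 13615 and 8115 and Mir9-2 at 1628 and 1430. The blood miRNA Mir451 stood at 244.7 and 127.8 RPM and the blood miRNA Mir144 at 49.96 and 42.2. The liver miRNA Mir122a stood at 169.8 and 105.95 RPM and the pituitary miRNA Mir375 at 35.8 and 7.06. Each miR-133 precursor of muscle had at most 10.8 reads. These markers were lower per total reads in the old library, as most snoRNA genes were. Mir9-2 and Mir144 turned higher under TMM and DESeq2 scaling. The part of cell composition in the snoRNA ratios was not tested. With 1 library per age there was no replicate error and no test between ages. The intervals given are exact 95% intervals that cover only the sampling of reads, which are PCR products, and they say nothing of the spread between mice. Ratios also depend on the depth used. Over the 849 annotated genes of any kind with at least 10 reads in a library, the median log2 ratio was -0.40 per total reads, and TMM or DESeq2 scaling raised every ratio by 0.42 or 0.41, which put that median near 0. A log2 ratio between -0.41 and 0 is therefore lower in the old library per total reads and higher under these scalings, and ratios are set against the median of -0.40. From whole-brain RNA, fewer cells of a type and less RNA per cell cannot be told apart.

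SnoRNA genes took 36414.5 reads, or 0.805% (0.797 to 0.813%), of the young library and 46191.7 reads, or 0.694% (0.687 to 0.700%), of the old one. That was 8050 and 6937 RPM, a log2 ratio of -0.21 (-0.23 to -0.19), which turned to 0.20 with TMM and DESeq2 scaling and was -0.013 with the depth without let-7, whose 8 precursors took 25.7% of all reads in the young library and 35.4% in the old. Reads were spread very unevenly. In the young library 360 snoRNA genes had a read, 63 had at least 10 and 21 at least 100, and in the old library the numbers were 364, 59 and 18. A single gene, AC167122.1, held 75.8% of these reads in the young library and 82.5% in the old. Without it the snoRNA total was 1945 RPM in the young and 1214 in the old library, a log2 ratio of -0.68 (-0.72 to -0.64), which kept its direction under every scaling. Reads antisense to snoRNA genes numbered only 5 and 6.

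The largest source, AC167122.1, has no class in its symbol but carries the H and ACA boxes of an H/ACA snoRNA in its sequence. It gave 6106 RPM in the young library (27616.8 reads) and 5723 in the old (38107 reads). The 2 libraries were close, with a log2 ratio of -0.09 (-0.12 to -0.07), which was 0.31 above the median of all annotated genes and changed sign under TMM (0.32), DESeq2 (0.32) and the depth without let-7 reads (0.11). Of its reads 99.98% lay on the mature miR-1839-5p of RefSeq, 83.7% began at base 65 of the gene, the first base of that miRNA, and 81.4% ended at base 86, its last. Start sites hardly differed between the libraries, with base 65 taking 83.2% and 84.2%.

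AC167122.1 was 1 of 14 snoRNA genes that contain mature miRNAs of the RefSeq table (22 of its 1738 mature miRNAs), and 13 of these genes had reads. The mature sequences below are those of RefSeq (GRCm38.p6) for the genes with the most reads, with the seed, bases 2 to 8, in capitals. None of these seeds occurred in another mature miRNA of the table, and the catalogued 5p miRNAs of the paralogs Scarna3a and Scarna3b are shifted against each other by 1 base.
mmu-miR-1839-5p, in AC167122.1: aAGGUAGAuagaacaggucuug
mmu-miR-664-5p, in Snora36b: cUGGCUGGggaaaaugacugg
mmu-miR-1843b-5p, in Scarna3a: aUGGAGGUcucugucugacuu
mmu-miR-1843a-5p, in Scarna3b: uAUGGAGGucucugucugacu
mmu-miR-3068-5p, in SNORA58: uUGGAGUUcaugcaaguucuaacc
mmu-miR-3068-3p, in SNORA58: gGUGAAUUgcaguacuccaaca
mmu-miR-3535, in SNORD20: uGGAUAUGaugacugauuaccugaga
mmu-miR-6516-5p, in SCARNA16: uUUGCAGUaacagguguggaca

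Taken without AC167122.1, the snoRNA genes with a mature miRNA stood further below 0 than snoRNA genes without one, with counting intervals that did not overlap. Their sum was 517.8 RPM in the young and 252.2 in the old library, a log2 ratio of -1.04 (-1.13 to -0.95), against -0.57 (-0.62 to -0.52) for the 402 genes with reads and no mature miRNA. These sums follow their leading genes. With AC167122.1 included, the genes with a mature miRNA stood at -0.15 (-0.17 to -0.13), above those without one, so the order was the opposite. Without AC167122.1 the medians over genes with at least 10 reads were closer, -0.93 over 6 genes with a mature miRNA and -0.79 over 64 without. After AC167122.1, Snora36b, an H/ACA snoRNA, was the most read of the miRNA-bearing genes. It had 839 reads in the young and 454 in the old library, 185.5 and 68.2 RPM. Its log2 ratio of -1.44 (-1.61 to -1.28) lay 1.05 below the median of all genes.

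The scaRNA paralogs Scarna3a and Scarna3b were also lower, with 553 and 398.5 reads in Scarna3a, a log2 ratio of -1.03 (-1.22 to -0.84), and 451 and 372 in Scarna3b, a log2 ratio of -0.84 (-1.04 to -0.63). In the 2 paralogs 83.6% and 80.9% of reads had a single perfect match in the genome, so most were told apart. SNORA58 was closer to equal, with 296 and 303 reads and a log2 ratio of -0.52 (-0.76 to -0.29). In the other direction stood SCARNA16, with 36 and 72 reads and a log2 ratio of 0.44 (-0.15 to 1.06), an interval that includes 0.

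Only SNORD20 among the well-covered miRNA-bearing genes is of the C/D class. It gave 145 reads in the young and 65 in the old library, 32.1 and 9.76 RPM, a log2 ratio of -1.72 (-2.16 to -1.28). Of its reads 99.5% lay on miR-3535, which is the 5′ end of the snoRNA itself, with the C box inside it. The tag equal to miR-3535 made up 55.9% (47.4 to 64.1%) of the reads of SNORD20 in the young library and 24.6% (14.8 to 36.9%) in the old one. The same tag without its first base came next, at 17.9% and 26.2%.

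The hairpins differed in how much came from each arm. In Snora36b the 5p arm, nearer the 5′ end, held 98.5% (97.4 to 99.2%) in the young library and 97.6% (95.7 to 98.8%) in the old one of the reads on either mature miRNA. SNORA58 was the most even, with 63.7% (58.0 to 69.2%) young and 56.4% (50.6 to 62.1%) old. Scarna3a had 85.4% and 80.2% on the 5p arm and Scarna3b 87.3% and 83.6%. The old share was the lower in each of these 4 genes, with overlapping intervals in all 4. Starts also differed from the catalogued ones: 83.8% of the reads on miR-1839-5p began at its first base, against 19.9% of the reads of Scarna3a on miR-1843b-5p, where base 79, 1 base earlier, was the most used start.

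**Figure D1:**
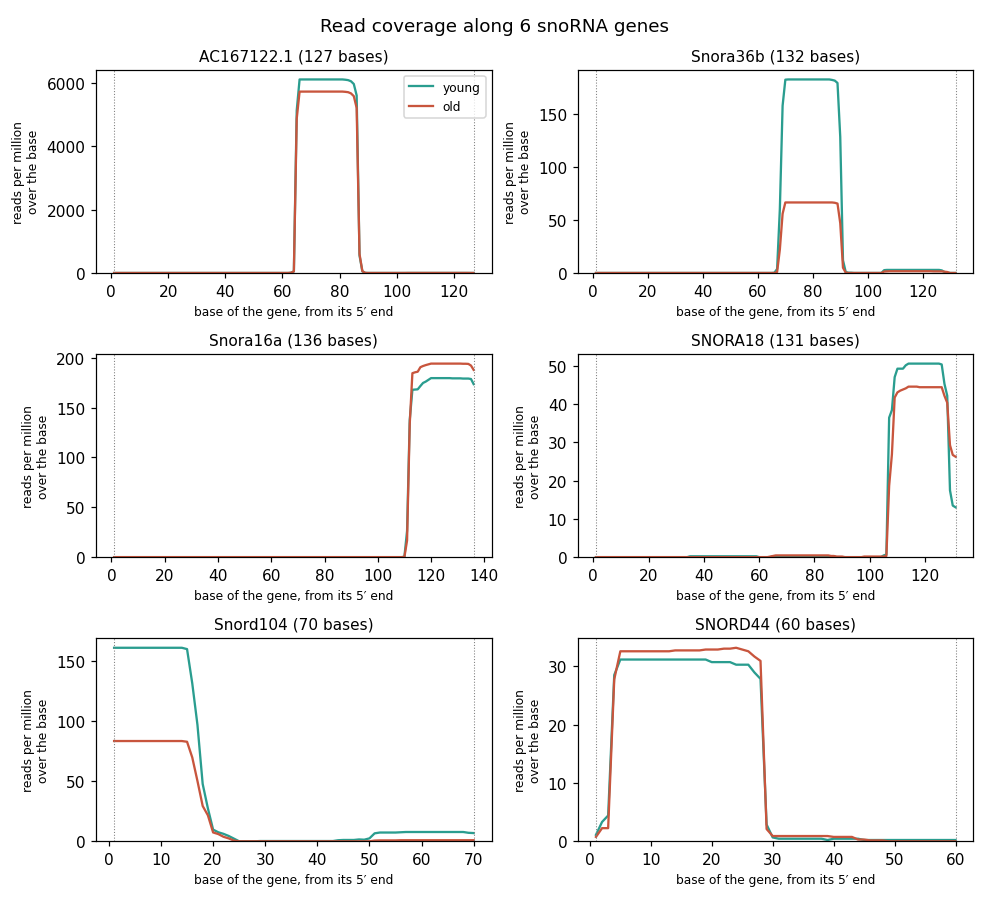
RPM over each base of 6 snoRNA genes, from the 5′ end of the gene, in the young and the old library; dotted lines mark the annotated gene ends. The highest block of reads is internal in AC167122.1 and Snora36b, at the 3′ end in Snora16a and SNORA18, and at or near the 5′ end in Snord104 and SNORD44; smaller separate blocks lie on the 3p arm of Snora36b (up to 2.87 RPM young and 1.65 old), near the 3′ end of AC167122.1 and in the 3′ part of Snord104 (up to 7.74 and 0.901).

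All 71 snoRNA genes with at least 10 reads in a library can be set beside all annotated genes with as many. Of these 71, 56 were lower in the old library, against 64.3% of the 849 annotated genes. By at least 2-fold 29 were lower and 5 higher, against 21.6% and 6.6% of the annotated genes. The snoRNA shares were thus 40.8% and 7.04%, the lower share above the background and the higher share close to it. In both sets the minimum could be met in either library, so a gene could pass only through the library where it was higher. At least 10 reads were reached by 63 snoRNA genes in the young library and by 59 in the old. The counts of lower genes therefore include some that passed only through the young library, as Snord110 did with 18.5 and 8 reads. All 5 higher snoRNA genes passed only through the old library. The median log2 ratio was -0.80, or 0.40 below that of all annotated genes, and 52 of the 71 lay below that median. The median was -0.69 over 297 miRNA genes and 0.09 over 365 protein-coding genes. Of the 71 intervals, 38 lay wholly below 0 and 2 wholly above, against 34% and 7.54% of all annotated genes, and 27 lay wholly below the median of -0.40 and 7 wholly above it, against 21.2% and 16.3%. With TMM scaling, 18 of the 71 were lower and 7 higher by at least 2-fold, 25.4% and 9.86%, against 10.1% and 15.0% of all annotated genes. The 71 include 9 U3 copies, all lower per total reads, which share divided reads and are not independent of each other.

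**Figure D2:**
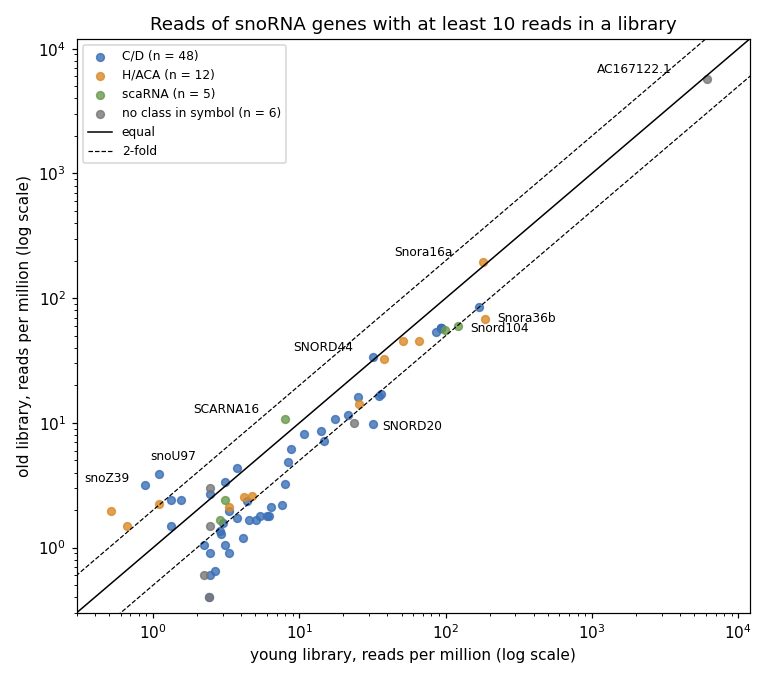
RPM of each of the 71 snoRNA genes with at least 10 reads in a library, young on the horizontal and old on the vertical axis, both on log scales, coloured by the class in the gene's symbol. Most points lie below the line of equality, 29 of them on or beyond the lower 2-fold line, and AC167122.1 stands alone at the top right.

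Of the C/D genes, 247 of 440 had reads, a total of 1080 RPM in the young and 630.8 in the old library, a log2 ratio of -0.78 (-0.84 to -0.72). Among the 48 with at least 10 reads in a library, 39 were lower in the old library, 24 of them at least 2-fold, 2 were at least 2-fold higher, and the median was -0.98, against 64.3% lower, 21.6% lower by 2-fold and 6.6% higher by 2-fold of all annotated genes. The 48 include 9 near-identical U3 copies, all lower, that share reads. Without U3, 30 of 39 C/D genes were lower, 22 of them at least 2-fold, and the median was -1.09. Of the H/ACA genes, 131 of 1032 had reads, with 582.8 and 431.1 RPM and a log2 ratio of -0.44 (-0.51 to -0.36), or -0.04 from the median of all genes. Among the 12 with at least 10 reads, 8 were lower, 1 of them at least 2-fold, 3 were at least 2-fold higher, and the median was -0.38, so the count of lower genes was near that background. Leaving out the H/ACA genes with a mature miRNA changed that sum to -0.06 (-0.16 to 0.03), and leaving out Snora16a as well changed it to -0.30 (-0.45 to -0.15), and both of these turned positive under TMM and DESeq2 scaling.

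Of the C/D genes other than the U3 copies, whose reads are divided over many genes, Snord104 was read most, with the C box in its leading tag and 765 reads in the young and 562 in the old library, 169.1 and 84.4 RPM. Its level in the old library was 0.499 times that in the young, with a log2 interval of -1.16 to -0.84, and 92.8% and 96.4% of its reads began 2 bases before the annotated start. Its 3′ ends were ragged, and the most used of them, base 17, took 27.1% of reads over both libraries. SNORD44, encoded in Gas5, was among the few that were not lower, with 144 and 223 reads, 31.8 and 33.5 RPM and a log2 ratio of 0.07 (-0.24 to 0.39). Its reads began at base 4 in 75.7% and 76.2% of cases and ended at base 28 in 78.5% and 86.1%.

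The U3 genes, whose RNA is needed to process the ribosomal RNA precursor, are many near-identical copies, and 15 of 47 had reads. Single copies cannot be told apart: the leading tag, 1119 reads in the young and 1095 in the old library, matched 5 copies equally. The copies summed to 490.4 RPM in the young and 301.3 in the old library, a log2 ratio of -0.70 (-0.79 to -0.61). The fragment was internal, bases 76 to 96, unlike that of most C/D genes. U14 RNAs, also needed for processing, are encoded in the heat shock gene Hspa8 and shared reads too. Snord14c had 158.5 and 108.5 reads and Snord14d 164 and 112.5, log2 ratios of -1.10 for both, and the list of U14 genes stood at -1.08 (-1.33 to -0.83). That value rested on tags shared by the copies, since only 3.00% of the reads of Snord14c and 6.51% of those of Snord14d matched a single position, and single-position tags alone gave 0.25 (-0.84 to 1.41). The third U14 gene with reads, Snord14e, had 2 and 5. The 25 snoU13 copies had no read, and the 4 genes with the symbol U8 had 0.5 in each library, which is below the floor of 3 reads. Snord118, the U8 gene, was detected, with 19.8 and 15.8 reads. Snord13, the U13 gene, had 6 and 16, log2 ratio 0.86 (-0.57 to 2.50).

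The H/ACA snoRNAs without a mature miRNA were led by Snora16a, with 811.8 reads in the young and 1292 in the old library, 179.5 and 194.0 RPM. Its log2 ratio was 0.11 (-0.02 to 0.24), or 0.51 above the median of all annotated genes. SNORA18, in an intron of Taf1d, had 231 and 300 reads, log2 ratio -0.18 (-0.43 to 0.07). Snora41, in an intron of Eef1b2, had 171.5 and 215 reads, log2 ratio -0.23 (-0.53 to 0.07). Both intervals include 0 and both ratios turned positive under TMM and DESeq2 scaling. Nearly all reads of Snora41 began at base 108, 98.5% young and 99.5% old.

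SNORA18 gave fragments of similar number but different ends in the 2 libraries. Its sequence is shown with the tag most read over both libraries in capitals, chosen after its values had been seen.
SNORA18, chr9:15118246-15118376, plus strand: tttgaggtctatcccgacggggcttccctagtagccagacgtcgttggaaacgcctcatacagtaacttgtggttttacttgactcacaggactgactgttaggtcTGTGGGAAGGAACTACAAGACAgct
That tag, which ends with the ACA box and lacks the last 3 bases, made up 48.1% (41.5 to 54.7%) of its reads in the young library and 23.7% (upper bound 28.9%) in the old one. Reads that ran to the last base of the gene made up 25.5% (20.05 to 31.7%) and 55.3% (49.5 to 61.0%). The start differed too. The first capital was the start of 70.1% (63.8 to 76.0%) of reads in the young library and 40.7% (35.1 to 46.5%) in the old, and the base 2 positions further of 16.9% (12.3 to 22.3%) and 33.0% (27.7 to 38.6%). In Snora16a, whose 3′ end was the same in both libraries, the start 1 base inside its leading tag had 16.9% (14.4 to 19.6%) and 26.2% (23.9 to 28.7%). SNORA18 was picked from many genes, and no count of other genes with end or start shares that differed as much is given here. With 1 library per age, these differences cannot be told apart from differences between mice.

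The place of fragments within the gene differed between the classes. In C/D genes other than U3, 68.4% (66.6 to 70.2%) of reads in the young library and 67.6% (65.6 to 69.5%) in the old one started within 10 bases of the 5′ end of the gene. Another 17.3% and 15.6% of reads ended within 10 bases of the 3′ end, and 14.3% and 16.9% were internal. Without Snord104 the 5′ end held 57.6% and 56.8%, and by distinct tags 41.9% and 39.7%. In H/ACA genes without a mature miRNA the 3′ end dominated, with 92.4% (90.9 to 93.7%) in the young library and 93.5% (92.4 to 94.6%) in the old. Without Snora16a it held 83.30% and 83.32%, and by distinct tags 56.2% and 57.3%. Over all H/ACA genes the 3′ end held 57.0% and 73.7% and internal reads 41.0% and 23.8%, while the reads on mature miRNAs, Snora36b among them, made up 43.2% and 26.5% of this class. In scaRNAs 83.9% and 78.0% of reads were internal, and 95.4% and 92.5% lay on mature miRNAs.

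**Figure D3:**
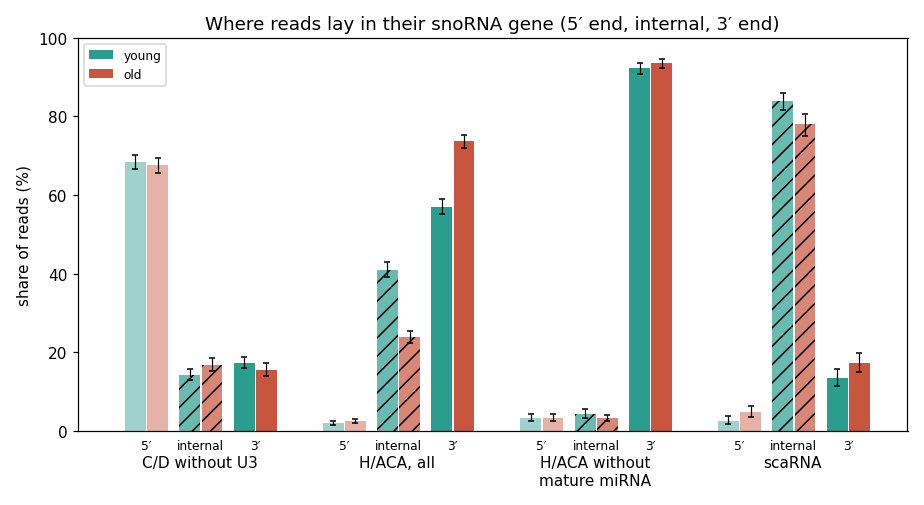
Share of reads, in percent, at the 5′ end, inside, and at the 3′ end of the snoRNA gene, by class and library; error bars are exact 95% counting intervals. The 5′ end leads in C/D genes without U3 (68.4% and 67.6%) and the 3′ end in H/ACA genes without a mature miRNA (92.4% and 93.5%).

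The boxes were searched as TGATGA in the first 20 bases (C box), CTGA in the last 15 (D box), ANANNA in the middle 50 (H box) and ACA followed by 1 to 5 bases at the end, all on the gene's own strand. They were found in 19.1%, 28.9%, 82.3% and 44.7% of all 1552 snoRNA genes. Of the 48 C/D genes with at least 10 reads, 28 had the C box and 47 the D box at these places. Of the 12 such H/ACA genes, 11 had the H box and 10 the ACA box. In these 48 C/D genes the most read tag lay at the 5′ end in 21, at the 3′ end in 11 and inside in 16, and held TGATGA in 22. These were 43 distinct tags, since copies that share a tag, as U3 copies do for their internal tag, were each counted. In the 12 H/ACA genes it lay at the 3′ end in 6 and at the 5′ end in 3. The most used start took a median of 64.6% of a gene's reads in C/D and 58.2% in H/ACA genes.

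Tag lengths were compared by class. Of all reads of C/D genes without U3, 11.1% and 16.05% were 25 nt long and 11.6% and 6.47% were 26 nt long, the longest in the files. C/D tags without U3 had a median length of 20 nt in the young and 21 nt in the old library, and 46.1% and 39.7% of their reads were 17 to 19 nt long. H/ACA tags without a mature miRNA had a median of 24 nt in both libraries, with 33.9% and 37.7% of reads at 25 nt. That peak was the leading tag of Snora16a, with 478 and 749 reads, and without this gene the median was 22 nt in both libraries and 3.22% and 4.72% of reads were 25 nt long. On miRNA genes of the same libraries the median was 22 nt, and 97.8% and 98.8% of reads were 20 to 24 nt long. The first base was T in 81.3% and 87.3% of reads on miRNA genes, but in 31.6% and 31.9% of their distinct tags. C/D tags without U3 began with C in 37.7% and 38.1% and with T in 29.6% and 23.8% of reads. Snord104 supplied most reads that began with C: without it C stood at 14.6% and 17.4% and T at 41.3% and 31.9%, and by distinct tags C stood at 21.4% and 24.2% and T at 31.8% and 28.9%. H/ACA tags without a mature miRNA began with T in 52.1% and 51.6% of reads, in 37.9% and 36.6% without Snora16a, and in 31.1% and 32.6% of distinct tags. The first bases of reads thus followed the leading tags, and by distinct tags T was about as frequent on miRNA genes as on these classes. The share of A over all snoRNA reads was 80.0% and 85.5% with AC167122.1 and 17.4% and 17.2% without it.

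**Figure D4:**
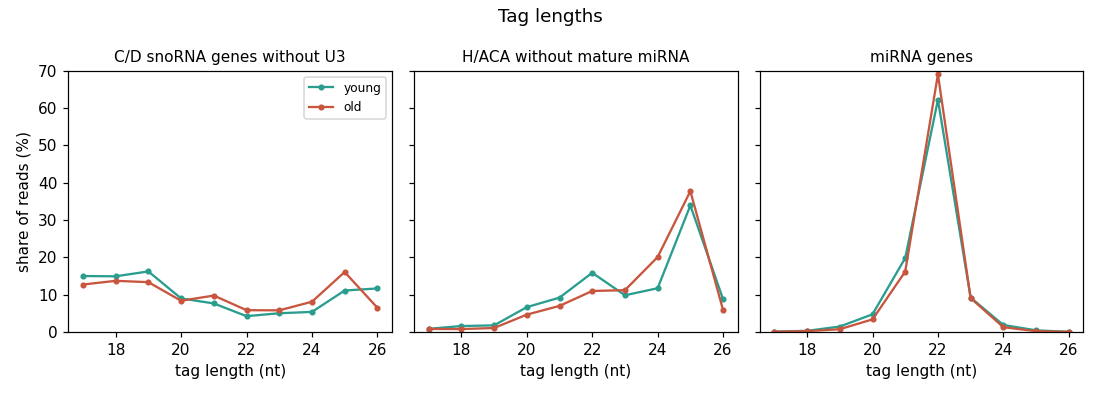
Share of reads, in percent, at each tag length from 17 to 26 nt in C/D snoRNA genes without U3, H/ACA snoRNA genes without a mature miRNA and miRNA genes, by library. C/D reads are spread with 46.1% and 39.7% at 17 to 19 nt, H/ACA reads peak at 25 nt through a single tag of Snora16a (478 and 749 reads), and miRNA genes peak at 22 nt.

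SnoRNAs were also grouped by where they are encoded. The 166 genes of the imprinted chromosome 7 locus (Snord115, Snord116, Snord64 and Snord107), which is expressed from the paternal allele in neurons, had 41.2 RPM in the young and 27.7 in the old library, log2 ratio -0.57 (-0.87 to -0.27). SNORD116 copies were the lower family, with 131.0 and 97 reads and a log2 ratio of -0.99 (-1.38 to -0.60). SNORD115 copies, whose full-length RNA is known for its match to the serotonin receptor 2C mRNA, had 45.3 and 80.6 reads and a log2 ratio of 0.27 (-0.27 to 0.83). The intervals of the 2 families do not overlap. Reads were spread thinly over near-identical copies, with 84 of 137 SNORD115 and 26 of 27 SNORD116 copies seen, and 1 and 0 of them with 10 reads in a library. The most read SNORD115 copy (chr7:66730992-66731070) had 6 and 10 reads and the most read SNORD116 copy (chr7:67009126-67009219) 9.82 and 4.11. Snord64 had 10 and 7.

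The imprinted chromosome 12 locus, 10 of 26 genes with reads, stood at -0.90 (-1.22 to -0.58). It was led by AF357428, a gene with C/D boxes, with 107.5 and 66 reads and a log2 ratio of -1.26 (-1.73 to -0.81). A SNORD113 copy (chr12:110919010-110919084) had 48.3 and 53.8 reads, log2 ratio -0.40 (-0.99 to 0.19), at the median of all annotated genes and of the opposite sign under TMM and DESeq2 scaling. A second copy (chr12:110920594-110920668) had 9.5 and 7 reads.

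Gas5 and the Snhg genes are noncoding genes that host several snoRNAs. The 9 snoRNAs of Gas5 summed to a log2 ratio of -0.17 (-0.45 to 0.10), SNORD44 included, and the other 8 stood at -1.16 (-1.81 to -0.53). Of them, SNORD81 had 23 and 11 reads, log2 ratio -1.62 (-2.81 to -0.53), and SNORD74 had 20.5 and 11 reads, log2 ratio -1.46 (-2.66 to -0.33). Likewise the Snhg list stood at -0.06 (-0.17 to 0.06) with Snora16a of Snhg12 and at -0.89 (-1.17 to -0.60) without it, and both whole-list ratios turned positive under TMM and DESeq2 scaling and the depth without let-7. In Snhg1, SNORD27 had 79 and 71 reads, log2 ratio -0.71 (-1.20 to -0.23), SNORD31 had 39.5 and 41, log2 ratio -0.50 (-1.17 to 0.16), and SNORD26 had 27 and 12, log2 ratio -1.73 (-2.84 to -0.70). In Gas5 the interval of SNORD44 overlapped neither that of SNORD81 nor that of SNORD74.

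Ribosomal protein genes hosted 58 snoRNAs, 36 of them with reads, which summed to a log2 ratio of -0.77 (-1.07 to -0.47). Of the 9 with at least 10 reads 6 were lower and 3 higher, a share close to the 64.3% lower among all annotated genes. By at least 2-fold 4 of the 9 were lower and 1 higher, against 21.6% and 6.6% of all annotated genes. Their median log2 ratio was -0.87, against -0.40. SNORD58 of Rpl17 had 17 and 29 reads, log2 ratio 0.21 (-0.70 to 1.17), and SNORD24 of Rpl7a had 14 and 22.3 reads, log2 ratio 0.11 (-0.92 to 1.19). Snora7a of Rpl32 had 21.3 and 17.2 reads, log2 ratio -0.87 (-1.88 to 0.11). SnoRNA genes inside introns, without AC167122.1, had a log2 ratio of -0.64 (-0.70 to -0.59), those overlapping annotated exons -0.65 (-0.77 to -0.52) and those outside annotated genes -0.84 (-0.94 to -0.73).

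The snoRNAs under the miRNA candidates of the study were chosen by the study on these samples, so their direction is no independent evidence. The list was formed by gene symbol and so holds every copy of a symbol, as with SNORA81. Whether each copy lies under a candidate was not tested. Of the 12 genes in the list 9 had reads and their sum stood at -0.97 (-1.26 to -0.68). SNORD20 was the most read of them over both libraries and SCARNA16 the only 1 of 4 with at least 10 reads that was higher. Snora64 had 6 and 4 reads, SNORA77 had 4 and 2, and the SNORA81 copies at most 3 each, and their intervals all include 0.

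**Figure D5:**
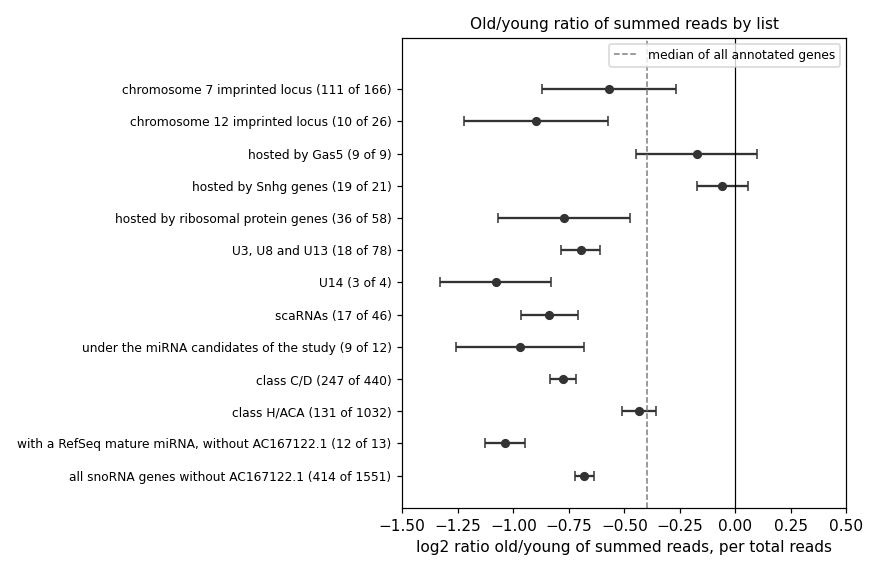
Log2 ratio of old over young of summed reads for each list of snoRNA genes, with exact 95% counting intervals; numbers give the genes with reads of those in the list, and the dashed line is the median of all annotated genes, -0.40. Values run from -1.08 for U14 to -0.06 for Snhg hosts, and only the Gas5 and Snhg lists have intervals that include 0.

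The largest rises and falls among genes with at least 20 reads in all came from few reads. snoU97 of Eif4g2 had 5 reads in the young and 26 in the old library, log2 ratio 1.82 (0.42 to 3.56), and snoZ39 of Cox7c had 4 and 21, log2 ratio 1.83 (0.27 to 3.84). These were the only intervals above 0 among the 71 genes. SNORA63, of the translation factor gene Eif4a2, had 5 and 15 reads, log2 ratio 1.03 (-0.51 to 2.84), and Snord69 had 7 and 16, log2 ratio 0.63 (-0.73 to 2.16). Snora73a and SNORA40, outside the rule for named genes, were the others at least 2-fold higher, with 2.33 and 13 reads and 3 and 10 reads. Among the 5 largest falls were those of Snord49a (34.5 and 14.5 reads, log2 ratio -1.81, -2.80 to -0.89), Snord110 (18.5 and 8, log2 ratio -1.77, -3.17 to -0.50) and SNORD26. These are C/D snoRNAs, and in Snord49a and SNORD26 the most used start was the first base of the gene.

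GC content moved with the ratios, and its part in them was not tested further than by a linear correction. Over 598 annotated genes that are not snoRNAs and had at least 20 reads over both libraries, the log2 ratio fell by 0.37 for each 10 percentage points of GC in the tags. Reads of snoZ39 and SNORA63, both higher in the old library, had 23.4% and 33.4% GC, while reads of U3 and Snora36b, both lower, had 64.9% and 55.1%. Among other genes that were lower, SNORD81 (log2 ratio -1.62) had 30.4% GC and SNORD20 (-1.72) had 38.5%. The median GC was 46.1% over the 71 snoRNA genes and 48.4% over all annotated genes, and the median log2 ratios were -0.80 and -0.40. With a linear correction for this slope, Snora36b stood at -1.21, SNORD20 at -2.10, AC167122.1 at -0.39, Snora16a at -0.19 and the U3, U8 and U13 list at -0.13, while snoZ39 stood at 0.89 and snoU97 at 1.54. After the correction 29 of the 71 genes were lower by at least 2-fold and 2 higher, against 18.7% lower and 6.71% higher of all annotated genes.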

How the data were processed

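The data were small RNA tags of 1 young and 1 old whole-brain library. The authors removed the 3′ adapter, aligned reads to mm9 with SOAP (version not given in the sources used here), collapsed identical sequences and deposited the raw read count of each. Here each tag without an undetermined base (4.57% of reads in the young and 1.07% in the old library had one) was matched to both strands of NCBIM37. Perfect matches were found for 68.4% and 70.8% of reads, and GENCODE M1 genes were assigned on the sense strand, with at most 60 matches. A minimum of 10 reads in a library was set for counts of genes and 0.5 reads stood for 0 where a ratio was formed. Ratios of counts per total reads had exact conditional binomial (Clopper-Pearson) 95% intervals, which cover counting error only. A count of 0 allowed up to 0.663 RPM in the young and 0.451 in the old library. The planned edgeR quasi-likelihood test could not be fitted without replicate libraries. Classes came from gene symbols, and a fragment end was a tag within 10 bases of a gene end. The genes named were the 15 with the most reads, the 5 largest rises and 5 largest falls among genes with at least 20 reads, and the 3 most read of each list. Added to these were the genes with the symbols of snoRNAs under the study's miRNA candidates. Of the falls, 2 are not reported here. Members and lists were chosen with earlier results of these data known. Alternatives changed the depth or scaling (TMM of edgeR 4.0.16, size factors of DESeq2 1.42.0), a GC trend, the read minimum, added reads, the matching rule, the unit counted and the class rule. Leaving out AC167122.1, Snord104, Snora16a or miRNA-bearing genes was added after seeing the data. Python 3.11.15, numpy 2.4.6, scipy 1.17.1, numba 0.67.0 and R 4.3.3 were used, and the scripts were tested on simulated data.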

Additional observations from a re-analysis of the deposited data

Results flagged for a closer look

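Reads that the comparisons did not use were present at snoRNA genes in 2 forms. Antisense to snoRNA genes there were 5 reads in the young and 6 in the old library. Tags without a perfect match that equalled a snoRNA-derived tag plus 1 base at the 3′ end held 4049 reads in the young and 5553 in the old library, 9.95% (9.66 to 10.2%) and 10.7% (10.4 to 10.96%) of these and the matched reads together. The added base was A in 77.1% and 76.2% and T in 19.96% and 21.2% of them. For AC167122.1 the share was 10.7% and 11.5%, and for the other snoRNA genes 7.44% (6.93 to 7.98%) and 6.85% (6.33 to 7.39%), with A at 65.8% and 64.1%. The files do not tell a base added to the RNA from a sequencing error or adapter base, and this was not tested.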

How the results depend on the processing

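The log2 ratio of all snoRNA reads, -0.21, was -0.26 per perfectly matched reads, -0.013 without let-7 in the depth, 0.20 with TMM, 0.20 with DESeq2, -0.17 with single-match tags, -0.68 without AC167122.1 and -0.57 without miRNA-bearing genes. With each distinct tag counted once it was -0.59, which is close to what the depth ratio alone gives for nearly equal numbers of tags and bears on no level. The number of genes at least 2-fold lower, 29, was 18 with TMM, 18 with DESeq2, 120 with no read minimum, 8 with a minimum of 50 and 6 by distinct tags, each over the genes that pass that setting. The number higher, 5, was 2 after GC correction, 46 with no minimum, 0 with a minimum of 50, 3 with 1 read added, 2 with tags wholly inside the gene and 0 by distinct tags. These last counts of 0 are counts past 2-fold and no test was run. Among all annotated genes 21.6% were lower by at least 2-fold, 10.1% with TMM and 10.2% with DESeq2. After GC correction 6.71% of them were higher by at least 2-fold. For the other read minimums, added reads, tags inside the gene and distinct tags no such share is given. Those counts therefore have no background here. The C/D share of reads, 13.4% young and 9.09% old, was 6.29% and 4.06% with single-match tags, 11.1% and 7.68% inside the gene, 63.99% and 60.8% by distinct tags, 6.65% and 4.18% with classes from boxes, and 55.5% and 52.0% without AC167122.1. The H/ACA share, 7.24% and 6.21%, was 7.68% (young, single match), 5.94% (old, inside), 19.2% and 21.7% (distinct tags), 85.6% and 90.3% (boxes, which place AC167122.1 there), and 30.0% and 35.5% without AC167122.1. The 5′ end share of C/D reads, 37.3% and 35.3% with U3 included, was 67.5% and 68.3% with single-match tags, which leaves out most U3 reads, and 27.4% and 26.02% inside the gene, which leaves out the leading Snord104 tags, and 26.6% and 25.5% without Snord104. The 3′ end share of H/ACA, 57.0% and 73.7%, was 49.1% and 53.7% by distinct tags and 37.8% and 52.2% without Snora16a. The share of 20 to 24 nt, 90.8% and 93.3%, was 54.5% and 60.4% by distinct tags and 65.2% and 66.9% without AC167122.1, and the share of first base A was 30.4% and 32.3%, and 17.4% and 17.2%. AC167122.1 turned to 0.11 without let-7, 0.32 with TMM and 0.32 with DESeq2. With single-match tags the U3 copy on chromosome 1 turned to 0.44, Snord14c to 1.03 and the U14 list to 0.25. Single-match reads were only 0.134% of the reads of this U3 copy and 3.00% of those of Snord14c. These reversed values thus rest on very few reads. Of the 48 named genes, 44 kept their direction with TMM, 44 with DESeq2, 46 without let-7 and 43 after GC correction, and of the 9 lists 7, 7, 7 and 9. Keeping tags of miRNA, mitochondrial or rRNA genes changed nothing, as 0 tags were barred by that rule. No paired analysis was possible because each age has 1 library. Depth limits the genes under 10 reads.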
